A study of Mus musculus with 6 samples.

Results

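The mitochondrial ribosomal protein genes were taken as every gene whose symbol is Mrpl or Mrps followed by a digit, with processed pseudogenes left out. The rule found 78 of the 22332 genes in the table, of which 49 carry a large-subunit symbol (Mrpl) and 29 a small-subunit symbol (Mrps). The rule used no measured value, and all 78 genes passed the filter on low counts and were tested.

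RNA was sequenced, after removal of ribosomal RNA, from the mouse embryonic stem cell line CGR8, kept in medium with 10% fetal bovine serum (FBS) and the cytokine LIF, which holds such cells in the pluripotent state. Cells were transfected with a pool of non-targeting siRNAs (siCtrl, n = 3 libraries) or with a pool of siRNAs against Rsl24d1 (siRSL24D1, n = 3 libraries) and collected after 48 hours, so that both groups had been transfected and grown in serum and LIF. The protein Rsl24d1 takes part in assembling the large subunit of the cytosolic ribosome, and the comparison asks which transcripts differ when that factor is reduced. The model is 1 cell line with a partial reduction of the mRNA, and the protein was not analysed here.

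Mitochondria have ribosomes of their own, which make the few proteins encoded by mitochondrial DNA, all of them core subunits of the respiratory chain or of ATP synthase. The ribosomal RNAs of these ribosomes are encoded in mitochondrial DNA, whereas every protein of both subunits is encoded in the nucleus, translated by cytosolic ribosomes and imported. Some of the proteins descend from those of the bacterial ribosome and others are found only in mitochondria. In embryonic stem cells, which rely strongly on glycolysis, mitochondria are few and immature and are built up as the cells differentiate.

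As a check of the labels, Rsl24d1 stood at 99.4, 103 and 97.9 CPM (counts relative to the library total, scaled by the TMM method of edgeR) in the siCtrl libraries and at 53.8, 55.6 and 52.1 CPM in the siRSL24D1 libraries. This is 0.538 of the control level (log2 fold change -0.89, SE 0.04, edgeR adjusted p = 2.0e-05). The libraries held 30943635 to 35214000 estimated counts each, with 17710 to 18201 genes detected. Replicates were not equally close: the libraries siCtrl 3 and siRSL24D1 2 stood apart from the other libraries of their groups, with a chi-square per degree of freedom over genes of 12.2 to 18.5 in every pair that held one of them, against 2.66 and 4.14 in the other pairs. Results for the mitoribosomal genes are therefore given with and without those 2 libraries. The 10 markers of pluripotent stem cells summed to 3384 to 3778 CPM in siCtrl and 2965 to 3119 CPM in siRSL24D1, with none at 0, while 8 fibroblast markers summed to 126 to 159 and 123 to 147 CPM and 8 endoderm markers to 40.3 to 44.0 and 37.0 to 40.9 CPM. The part of these marker levels in the results below was not tested. The series' design text calls the triplicates independent, but no label says whether they were separate cultures, so the p-values measure the spread between these libraries.

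The promoters of 4 genes are shown first, because they belong to genes that the results turn on: Mrpl24, the gene with the largest fall, Mrpl20, the one with the largest rise, and Mrps18b and Mrps11, which rose and each share a head-to-head start with another gene. Each is the RefSeq window of 300 bases on GRCm38.p6, from 250 bases before the start of transcription to 50 bases after it, written 5′ to 3′ on the strand of the gene. Capitals mark the full match to a motif described after the sequences. The windows are Mrpl24, chr3:87919294-87919593 (plus strand), Mrpl20, chr4:155802628-155802927 (plus strand), Mrps18b, chr17:35916391-35916690 (minus strand) and Mrps11, chr7:78782881-78783180 (plus strand).
Mrpl24: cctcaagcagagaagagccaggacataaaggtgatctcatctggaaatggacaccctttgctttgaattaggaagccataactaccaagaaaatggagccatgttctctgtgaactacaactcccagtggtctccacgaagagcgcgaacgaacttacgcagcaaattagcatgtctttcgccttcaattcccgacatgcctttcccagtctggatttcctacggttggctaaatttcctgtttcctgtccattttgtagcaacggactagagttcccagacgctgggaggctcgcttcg
Mrpl20: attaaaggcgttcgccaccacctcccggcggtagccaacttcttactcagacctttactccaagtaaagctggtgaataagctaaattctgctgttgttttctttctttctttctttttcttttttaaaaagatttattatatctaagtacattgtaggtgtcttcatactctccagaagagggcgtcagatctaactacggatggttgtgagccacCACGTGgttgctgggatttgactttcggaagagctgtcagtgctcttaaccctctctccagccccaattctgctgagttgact
Mrps18b: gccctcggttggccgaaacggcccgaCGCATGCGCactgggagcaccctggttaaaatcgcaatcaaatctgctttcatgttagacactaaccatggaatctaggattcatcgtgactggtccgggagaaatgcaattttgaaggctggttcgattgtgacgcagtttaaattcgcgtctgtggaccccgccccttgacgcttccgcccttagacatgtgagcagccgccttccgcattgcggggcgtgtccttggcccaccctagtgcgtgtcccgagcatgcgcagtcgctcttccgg
Mrps11: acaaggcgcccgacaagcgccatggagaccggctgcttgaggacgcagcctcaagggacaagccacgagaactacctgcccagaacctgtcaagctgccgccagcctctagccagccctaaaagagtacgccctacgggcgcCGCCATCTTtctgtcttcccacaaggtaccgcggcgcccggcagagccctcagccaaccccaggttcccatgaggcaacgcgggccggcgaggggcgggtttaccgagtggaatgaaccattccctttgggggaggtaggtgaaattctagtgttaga

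A set of 5 short motifs was searched on both strands in all 75 windows that RefSeq gives for 69 of the 78 genes, and in all 32851 windows of the genome table. The motif of NRF1, a transcription factor known for driving nuclear genes of mitochondria (GCGCATGCG), was in 9.33% of the mitoribosomal windows and 1.75% of all windows. An ETS-family motif (CCGGAAGT) was in 16.0% and 3.89%, and a YY1 motif (AAGATGGCG) in 10.7% and 1.40%. A match to the E-box (CACGTG), bound by Myc and related factors, was in 9.33% and 7.15%. Among the 14839 windows of genes tested here, the shares were 3.17% for NRF1, 6.94% for ETS, 2.57% for YY1 and 9.47% for the E-box. In the 72 windows of cytosolic ribosomal protein genes they were 4.17%, 16.7%, 6.94% and 11.1%, so that the ETS motif and the E-box were no more frequent in the mitoribosomal windows than there. The ZNF143 motif (ACTACAATT) was in none of the mitoribosomal windows and in 0.393% of all windows. Mrps18b holds the NRF1 motif, Mrps11 the YY1 motif and Mrpl20 the E-box, while the Mrpl24 window holds none of the 5 motifs. None of the 5 motifs contains another, and a match describes the letters only.

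Across both subunits 10 of the 78 mitoribosomal genes rose and 9 fell, and 59 did not pass the test. A gene is said to have risen or fallen at an adjusted p under 0.05 in edgeR's quasi-likelihood test over all 15084 genes tested. The called share was 24.4%, against 41.2% of all genes tested, and the rises and falls among all genes were 21.2% and 20.0%. In the large subunit 5 of 49 rose and 5 fell (20.4% called), and in the small subunit 5 of 29 rose and 4 fell (31% called). Median log2 fold changes were 0.02 in the large and 0.00 in the small subunit, beside 0.02 over all genes. The genes spread from -0.47 for Mrpl24 to 0.45 for Mrpl20. Their median absolute log2 fold change was 0.11, beside 0.20 over all genes, and their median standard error was 0.06, beside 0.08.

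**Figure D1:**
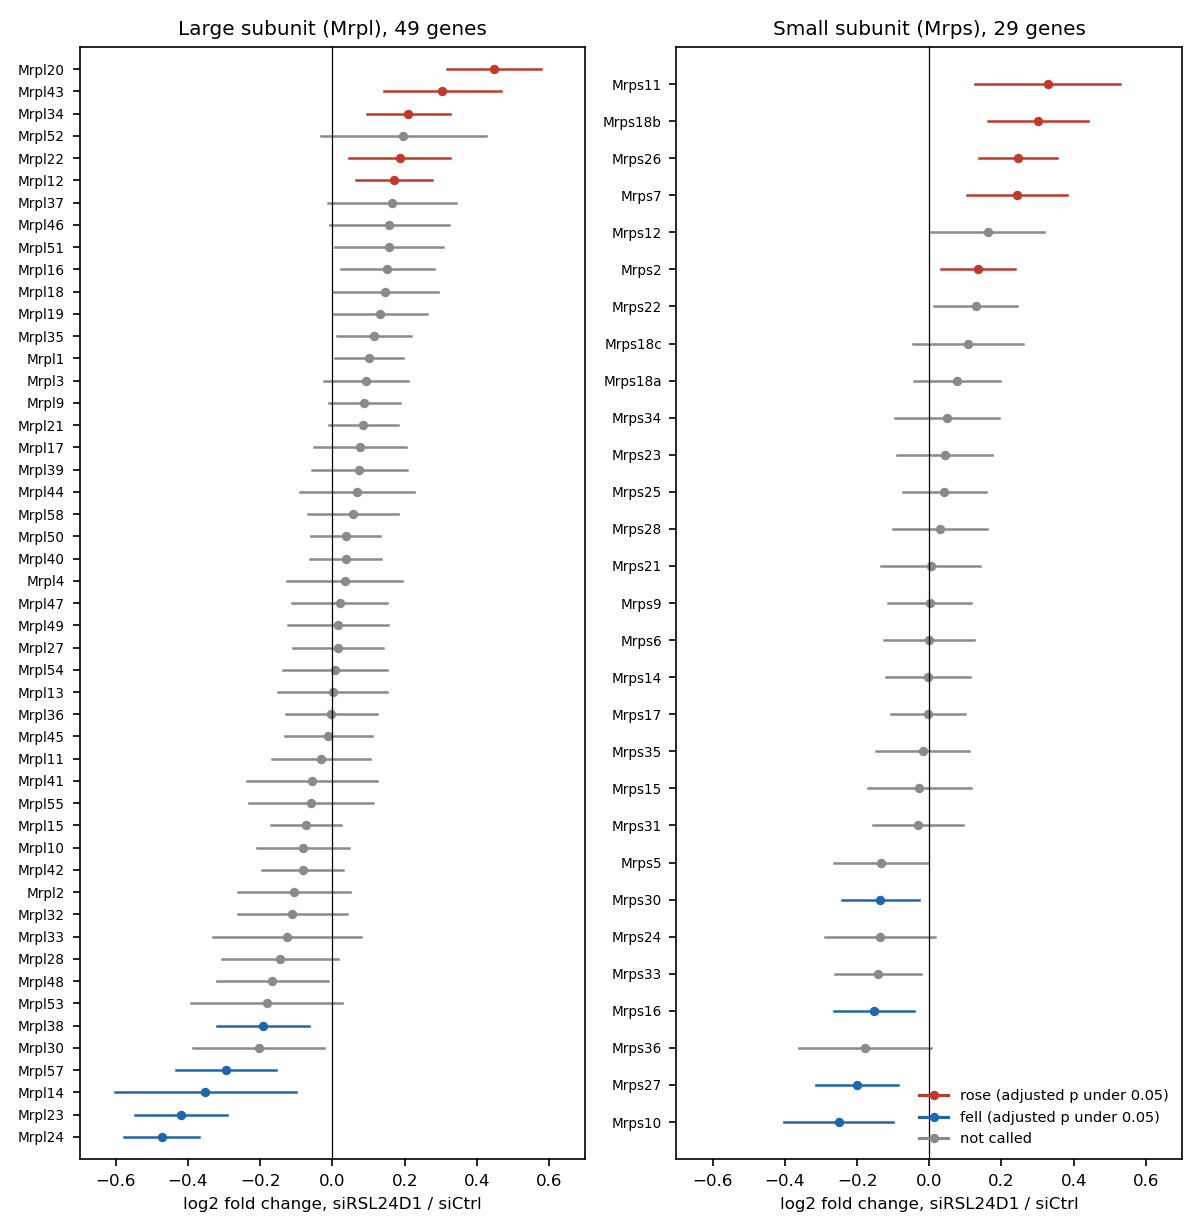
Log2 fold change of siRSL24D1 over siCtrl (x axis) for each of the 49 large-subunit genes (left) and 29 small-subunit genes (right), with points for edgeR estimates and bars for 95% confidence intervals, red for genes that rose, blue for genes that fell and grey for genes not called. Most of the genes lie close to 0, with Mrpl24 at -0.47 and Mrpl20 at 0.45 as the ends of the range.

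The 59 genes that did not pass the test lay between -0.20 and 0.20 on the log2 scale. For 52 of them the 95% confidence interval stayed within a 1.25-fold change in either direction. Over all 78 genes it stayed within 1.5-fold for 77, the exception being Mrpl14, against 65.8% of all genes tested, and within 1.25-fold for 58, against 36.1%. All 3 siRSL24D1 libraries lay above all 3 siCtrl libraries for 18 genes and below them for 12, beside 26.8% and 26.2% of all genes tested. Among these were 8 higher and 3 lower genes that did not pass the test. Of the 59 genes, 33 passed the test in at least 1 of the 20 other settings at the same threshold, a count given without the matching share of all genes. The one called most often was Mrpl30 (chosen here after its values were seen), at 68.8, 68.7 and 60.9 CPM in siCtrl and 58.9, 62.0 and 51.3 CPM in siRSL24D1 (-0.20, SE 0.08, edgeR adjusted p = 0.069), with 0.00021 to 0.043 in the settings that called it.

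The summed level of the mitoribosomal mRNAs differed between the groups by less than their spread when all 6 libraries were used. The 78 genes summed to 3899, 3905 and 3644 CPM in siCtrl and to 3710, 3991 and 3762 CPM in siRSL24D1, that is 3816 ± 149 and 3821 ± 149 (SD, n = 3). The groups overlapped, with a difference of 5.07 CPM. Large-subunit genes summed to 2580 ± 105 and 2573 ± 106 CPM, and small-subunit genes to 1236 ± 43.9 and 1248 ± 43.1 CPM. Without siCtrl 3 and siRSL24D1 2, the 2 siRSL24D1 libraries that remain (3710 and 3762 CPM) lay below the 2 siCtrl libraries (3899 and 3905 CPM), a difference of -166 CPM. The difference was then -128 CPM for the large and -37.5 CPM for the small subunit, also without overlap. With 1 library left out it ranged from -80.95 to 60.6 CPM over the 78 genes, below 0 without siCtrl 3 or without siRSL24D1 2. In bulk RNA of this kind, fewer cells of a type and less RNA per cell cannot be told apart.

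Libraries of one group differed more over the whole set than the groups did. In siCtrl 3 the level was the lowest of its group for 66 of the 78 genes, and in siRSL24D1 2 it was the highest of its group for 61. Over all genes tested those shares were 40.5% and 40.8%, and among genes with a transcript under 1500 bases, which 47 of the 78 mitoribosomal genes have, they were 65.2% and 62.6%. Median deviations from the siCtrl mean were 0.03, 0.03 and -0.07 (log2) in siCtrl 1 to 3 and -0.03, 0.08 and 0.02 in siRSL24D1 1 to 3.

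**Figure D2:**
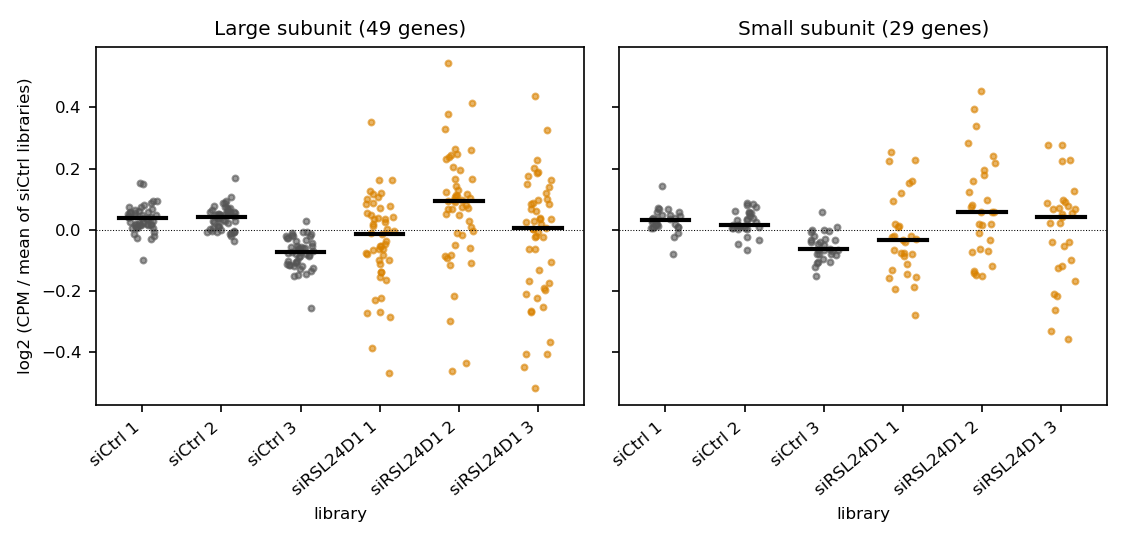
Level of each large-subunit gene (left, 49 genes) and small-subunit gene (right, 29 genes) in each of the 6 libraries (x axis), as log2 of its CPM over the mean of the siCtrl libraries (y axis); points are genes and black lines medians. The siCtrl 3 medians lie below those of siCtrl 1 and 2, the siRSL24D1 2 medians are the highest, and the genes spread more widely in the siRSL24D1 libraries, which are not part of the reference mean.

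With those 2 libraries left out, an alternative chosen after seeing the data, 8 of the 78 genes rose and 27 fell, so that the share called became 44.9%, beside 52.9% of all genes. Rises were then 22.9% of the calls, beside 49.9% over all genes. All 9 genes that fell with every library included fell here too, and 8 of the 10 that rose also rose here. The median log2 fold change was -0.06 in the large and -0.04 in the small subunit. Single libraries also changed the balance of rises and falls: without siCtrl 3 alone 8 rose and 17 fell, without siRSL24D1 1 alone 13 rose and 4 fell, and without siRSL24D1 2 alone 7 rose and 11 fell. Leaving out siCtrl 1, siCtrl 2 or siRSL24D1 3 gave 9, 5 and 8 rises and 4, 3 and 3 falls. Over all genes, rises were 50.4% to 52.1% of the calls with 1 library left out. The share called was then 28.5% to 43.5% of all genes and 10.3% to 32.1% of the mitoribosomal genes. Library scaling and a correction for transcript length also moved the split: 18 rose and 8 fell with library totals in place of TMM, and 21 rose and 9 fell after the length correction. Rises made up 52.6% of the main calls, beside 51.4% over all genes. They made up 69.2% with library totals and 70.0% with the length correction, beside 56.7% and 50.1% over all genes. The median over all genes was 0.04 with library totals, as in the mitoribosomal genes, but 0.01 beside 0.06 with the length correction. In the main comparison and in each of 21 alternatives, the threshold of 0.01 included, the share of mitoribosomal genes called (8.97% to 44.9% over the alternatives) was below that of all genes in the same setting.

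At an adjusted p under 0.05, 8 genes passed the test in the main comparison and in each of the 20 other settings. This count is given without the matching share of all genes tested, so whether it is high or low is not known. Of the 8 genes, Mrpl24, Mrpl23 and Mrpl57 fell, and Mrpl20, Mrpl43, Mrpl34, Mrps18b and Mrps26 rose.

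**Figure D3:**
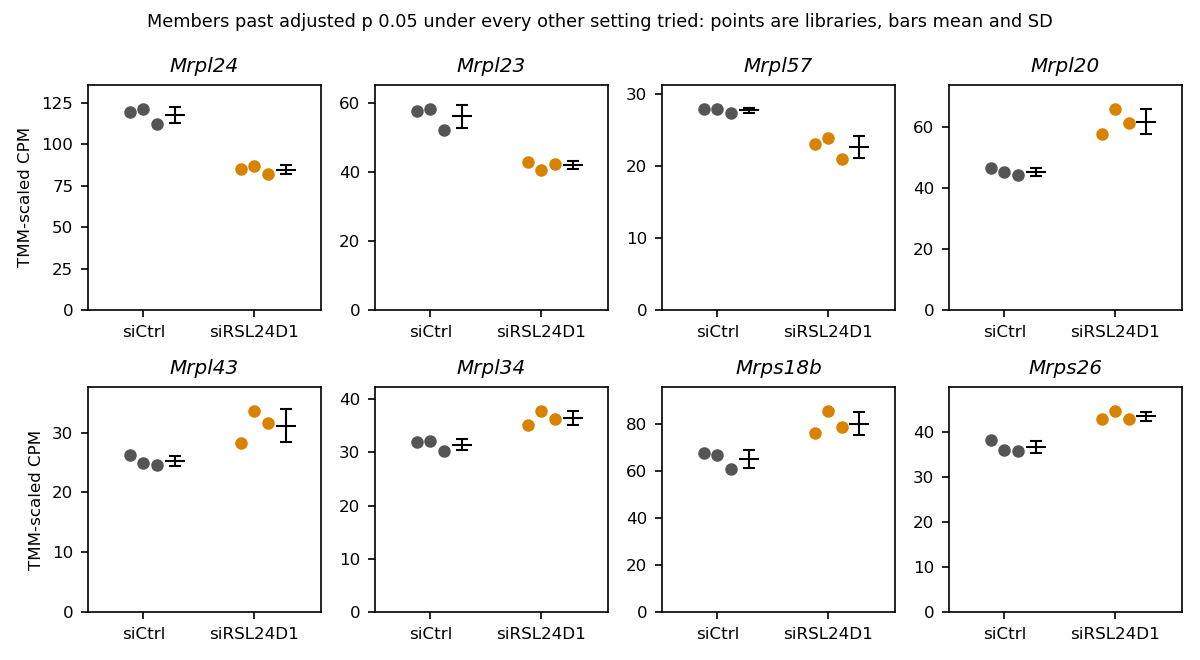
TMM-scaled CPM (y axis, from 0) of the 8 genes that passed an adjusted p of 0.05 in every setting, in siCtrl (grey) and siRSL24D1 (orange); points are the 3 libraries of a group and bars show mean and SD. In each panel the groups do not overlap, with Mrpl24, Mrpl23 and Mrpl57 lower and the other genes higher in siRSL24D1.

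Of the large-subunit genes that fell, Mrpl24 and Mrpl23 encode proteins whose bacterial counterparts sit around the exit of the tunnel through which the new polypeptide leaves. Mrpl24 (chr3:87919506-87923672, plus strand, GRCm38) stood at 119, 121 and 112 CPM in siCtrl and at 85.1, 87.0 and 82.1 CPM in siRSL24D1. The groups were far apart relative to their spread, and the level fell by 28% (log2 fold change -0.47, SE 0.05, edgeR adjusted p = 0.00017). Exons of Mrpl24 overlap those of Rrnad1 on the other strand, and the strand setting of the counting is not given in the sources used here, so reads of the 2 genes may be mixed. Mrpl23 (chr7:142532686-142540747, plus strand) stood at 57.7, 58.4 and 52.2 CPM in siCtrl and 42.9, 40.7 and 42.4 CPM in siRSL24D1. It was lower in every siRSL24D1 library, by 25.2% (log2 fold change -0.42, SE 0.06, edgeR adjusted p = 0.0007).

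Mrpl57 (chr14:57826234-57829296, plus strand) encodes a small protein found only in mitochondrial ribosomes. It stood at 27.9, 28 and 27.4 CPM in siCtrl and at 23.1, 23.9 and 21.0 CPM in siRSL24D1, with groups that did not overlap (log2 fold change -0.29, SE 0.06, edgeR adjusted p = 0.0057). Mrpl14, whose protein lies at the face where the subunits meet, stood at 22.1, 21.4 and 16.6 CPM in siCtrl and 16.3, 16.2 and 14.6 CPM in siRSL24D1. Its exons overlap those of Tmem63b on the other strand, with the same doubt about its reads. The lowest siCtrl library and the highest siRSL24D1 library were nearly equal (log2 fold change -0.35, SE 0.11, edgeR adjusted p = 0.032). Mrpl38, another mitochondria-specific protein, had the smallest fall of the large subunit (-0.19, SE 0.06, adjusted p = 0.024), with 72.1, 69.8 and 65.7 CPM against 59.2, 64.2 and 58.1 CPM. Neither Mrpl14 nor Mrpl38 kept its call when any one of siCtrl 1, siCtrl 2, siRSL24D1 1 or siRSL24D1 3 was left out, where adjusted p reached 0.116 and 0.092.

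Among the large-subunit genes that rose, Mrpl20 (chr4:155802878-155809975, plus strand) encodes the counterpart of a bacterial protein needed early in large-subunit assembly. Its level was 46.6, 45.2 and 44.3 CPM in siCtrl and 57.9, 66.2 and 61.4 CPM in siRSL24D1. Every siRSL24D1 library lay above every siCtrl library, and the mean rose by 36.3% (log2 fold change 0.45, SE 0.06, edgeR adjusted p = 0.00058). The estimated counts of Mrpl20 were not whole in any library, as for Mrpl24 and Mrps26, and the part of split reads in its rise was not tested. Mrpl43 (chr19:45004829-45006442, minus strand), which encodes a mitochondria-specific protein, went from 26.2, 24.9 and 24.6 CPM to 28.2, 33.6 and 31.6 CPM. Its groups did not overlap either (0.30, SE 0.07, adjusted p = 0.0096).

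Mrpl34 (chr8:71464959-71465747, plus strand), a small basic protein with a bacterial counterpart, stood at 32, 32.1 and 30.3 CPM in siCtrl and at 35.2, 37.8 and 36.2 CPM in siRSL24D1 (0.21, SE 0.05, adjusted p = 0.011). Mrpl22, which lines the exit tunnel, and Mrpl12, the stalk protein that recruits translation factors, rose by less. Mrpl22 went from 41.4, 38.8 and 36.8 CPM to 42.0, 46.7 and 44.5 CPM (0.19, SE 0.06, adjusted p = 0.04). Mrpl12 went from 78.6, 76.3 and 79.9 CPM to 85, 92.4 and 86.9 CPM (0.17, SE 0.05, adjusted p = 0.019). The groups did not overlap for either, but Mrpl22 lost its call without any one of siCtrl 2, siCtrl 3, siRSL24D1 2 or siRSL24D1 3 (adjusted p up to 0.132), and Mrpl12 without siCtrl 2 or siRSL24D1 2 (up to 0.0848).

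In the small subunit, Mrps18b (chr17:35910379-35916389, minus strand) and Mrps26 (chr2:130563742-130568695, plus strand), both of them classed here as mitochondria-specific, rose in every setting. Mrps18b stood at 67.7, 66.6 and 60.8 CPM in siCtrl and 76.1, 85.5 and 78.7 CPM in siRSL24D1 (log2 fold change 0.30, SE 0.06, edgeR adjusted p = 0.0051). Mrps26 stood at 38.1, 36.0 and 35.8 CPM and at 42.8, 44.6 and 42.8 CPM (0.25, SE 0.05, adjusted p = 0.0042). The libraries of the groups did not overlap for either gene. Mrps18b has a pair of paralogs, Mrps18a and Mrps18c, of which Mrps18a is a large-subunit protein in the structure despite its symbol. Mrps18c is classed as having a bacterial counterpart, so the class of Mrps18a and Mrps18b does not describe their descent. Neither paralog passed the test (Mrps18a 0.08, SE 0.05, adjusted p = 0.27; Mrps18c 0.11, SE 0.07, adjusted p = 0.23), and the differences between the paralogs were not tested.

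Mrps11 and Mrps7, on the platform and the head of the subunit in bacteria, also rose. Mrps11 (chr7:78783119-78792989, plus strand) stood at 21.2, 19.3 and 17.3 CPM in siCtrl and at 22.9, 26.3 and 23.3 CPM in siRSL24D1 (0.33, SE 0.09, adjusted p = 0.018). Mrps7 stood at 61.9, 59.5 and 55.9 CPM and at 65.9, 74.7 and 69.2 CPM (0.24, SE 0.06, adjusted p = 0.013). The groups were separate for both genes, and both calls were lost without siCtrl 2 (adjusted p = 0.0647 and 0.0509). Mrps2, another protein with a bacterial counterpart, had the smallest rise (0.13, SE 0.04, adjusted p = 0.041), and only the fit without siRSL24D1 1 kept its call among those leaving out 1 library.

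Of the small-subunit symbols 4 fell. Mrps10, in the head of the subunit, stood at 31, 34.6 and 32.6 CPM in siCtrl and at 27.0, 29.5 and 26.0 CPM in siRSL24D1 (log2 fold change -0.25, SE 0.07, edgeR adjusted p = 0.017). Mrps27, a pentatricopeptide repeat protein, stood at 61.9, 61.8 and 57.8 CPM and at 53.2, 54.4 and 50.4 CPM (-0.20, SE 0.05, adjusted p = 0.013). In both cases the groups did not overlap. Mrps16, with a bacterial counterpart, was lower by 0.15 (log2 fold change -0.15, SE 0.05, adjusted p = 0.034), and Mrps30, which is part of the large subunit in the structure, by 0.14 (-0.14, SE 0.05, adjusted p = 0.046).
The calls of Mrps16 and Mrps30 survived the removal of siCtrl 3 only. Mrps10 lost its call without siCtrl 2, siRSL24D1 1 or siRSL24D1 3 (adjusted p up to 0.0668), and Mrps27 without siCtrl 1, siCtrl 2 or siRSL24D1 3 (up to 0.059). Scaling, filter and test mattered too for the smallest changes: of the 20 other settings, Mrpl22 and Mrps30 were called in 9 each and Mrps2 in 8, with adjusted p of up to 0.189, 0.169 and 0.21, while Mrps16 also lost its call in the Wald test of DESeq2.

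Sorting the genes by their place in the structure instead of by symbol moved Mrps18a and Mrps30 to the large subunit and set aside Mrps36, now known as a component of the oxoglutarate dehydrogenase complex. The large subunit then had 51 genes, of which 5 rose and 6 fell, and the small subunit 26, of which 5 rose and 3 fell. Mrps36 was at 24.4, 23.7 and 22.8 CPM in siCtrl and 21.5, 22.6 and 18.4 CPM in siRSL24D1 and did not pass the test (-0.18, SE 0.08, adjusted p = 0.11). By class and place in the structure, 4 of 29 large-subunit genes with a bacterial counterpart rose and 3 fell, and 1 of 21 mitochondria-specific ones rose and 3 fell, with Mrpl55 in neither class. Mrps18a and Mrps18b are counted as mitochondria-specific here, although their paralog Mrps18c is counted with a bacterial counterpart. For the small subunit the counts were 3 and 2 of 16 with a bacterial counterpart and 2 and 1 of 10 mitochondria-specific genes.

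Levels of different genes were compared per kilobase of transcript (CPM per kilobase, with the longest principal transcript of the GENCODE M21 annotation as the length). In siCtrl the highest large-subunit levels were those of Mrpl42 (111 ± 4.3), Mrpl24 (87.8 ± 3.5) and Mrpl33 (83.7 ± 6.07) CPM per kilobase (SD, n = 3). In the small subunit the highest were Mrps21 (70.1 ± 0.962), Mrps18b (60.3 ± 3.43) and Mrps18c (51.5 ± 2.42) CPM per kilobase. Mrpl24 and Mrpl33 lay within their spread of each other in siCtrl. In siRSL24D1 Mrpl24 was at 63.3 ± 1.87 CPM per kilobase, while Mrpl20 went from 59.4 ± 1.57 to 80.9 ± 5.39 CPM per kilobase.
The lowest values per kilobase were those of Mrps25 (6.78 ± 0.198), Mrpl48 (7.23 ± 0.556) and Mrpl17 (7.33 ± 0.475), followed by Mrps35 (8.29 ± 0.35), Mrps26 (8.56 ± 0.3) and Mrpl19 (8.91 ± 0.255). These genes have principal transcripts of 4162 to 7300 bases, beside a median of 1302 for the 78 genes, and the values depend on the transcript taken as the length. Neighbours in this order differed by less than the sum of their SDs, except Mrpl17 and Mrps35.

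Many mitoribosomal genes start head to head with another gene. For 33 of the 78 (42.3%) a protein-coding gene on the other strand started within 1000 bases, against 14.3% of the 15056 protein-coding genes tested. Of the 31 partners that were tested, 6 rose, 7 fell and 18 were not called, so that 41.9% were called, near the 41.2% of all genes tested. Mrps11 and Mrpl46 are each counted as the partner of the other. For 15 of the 33 genes the exons overlap those of the partner on opposite strands. Reads may then be mixed between the genes, since the strand setting of the counting is not given in the sources used here. Among the called genes, exons of Mrpl12, Mrps7, Mrps18b, Mrps26, Mrps27 and Mrps30 overlap those of another gene on the other strand too. Gene and partner were both called in 4 cases. The directions matched in 3 of them: Mrps18b with Ppp1r10, a regulatory subunit of a protein phosphatase (0.30 and 0.71), Mrpl43 with Twnk, the mitochondrial DNA helicase (0.30 and 0.22, with overlapping exons), and Mrps27 with Ptcd2 (-0.20 and -0.17). They were opposite for Mrpl14 and Tmem63b (-0.35 and 0.38), whose exons overlap too.

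Mrps11 and Mrpl46 form a pair within the set. Their exons overlap on opposite strands, so reads may be mixed between them. Their promoter windows share 141 bases (chr7:78783040-78783180), so the end of the Mrps11 window printed above lies in both. Mrpl46 stood at 31.7, 33.3 and 29.2 CPM in siCtrl and at 32.1, 37.2 and 35.7 CPM in siRSL24D1. Its groups overlapped and it did not pass the test (0.16, SE 0.07, adjusted p = 0.11), beside 0.33 for Mrps11. Partners also changed beside mitoribosomal genes that were not called. Mrpl51 was at 0.16 (adjusted p = 0.088) while its partner Ncapd2, a condensin subunit, fell (-0.45), and Mrpl49 was at 0.02 (adjusted p = 0.85) while Fau, which encodes a cytosolic small-subunit ribosomal protein, fell (-0.30).

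**Figure D4:**
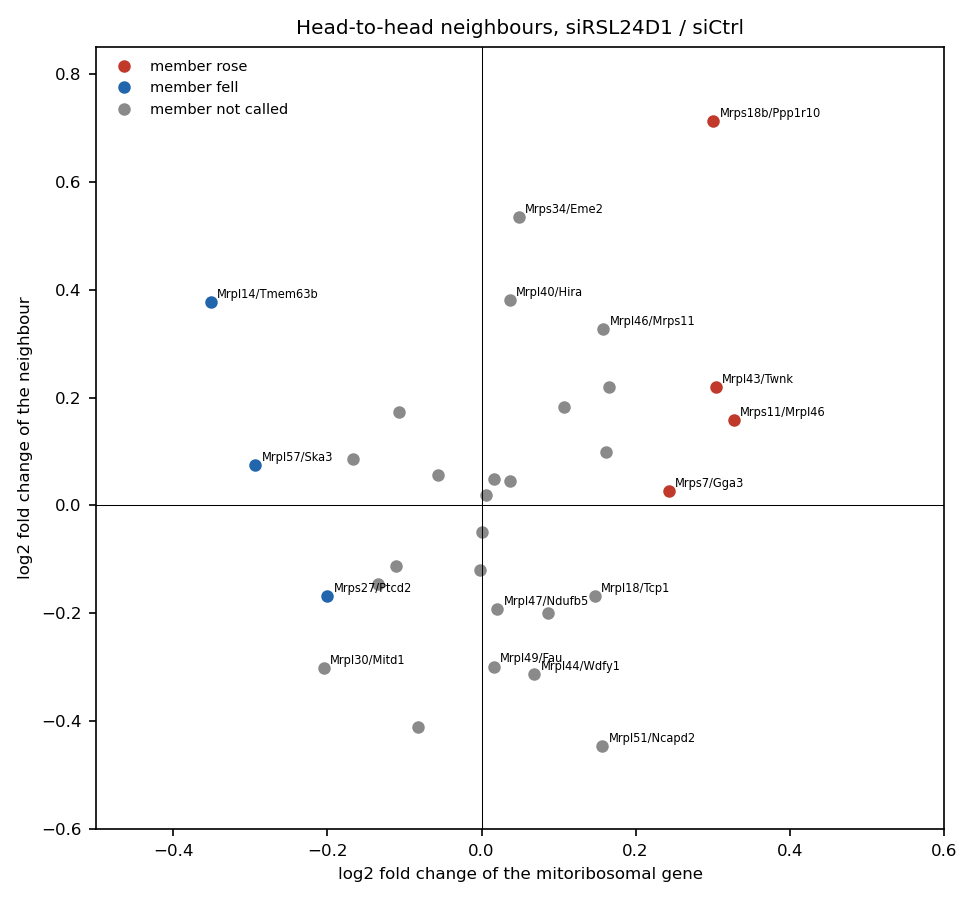
Log2 fold change (siRSL24D1 over siCtrl) of each mitoribosomal gene with a tested head-to-head neighbour (x axis) against that of the neighbour (y axis), 31 points, coloured by the call of the mitoribosomal gene and named where either gene was called. Mrps11 and Mrpl46 appear once on each axis, and Mrpl14/Tmem63b is the named pair with a fall on the x axis and a rise on the y axis that both passed the test.

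Other genes of the mitochondrial translation system were set beside them from lists chosen with earlier results known. Of 5 mitoribosomal proteins with other symbols, Dap3, a small-subunit protein that binds GTP, fell (86.3, 88.4 and 78.1 CPM to 71.6, 72.7 and 67.6 CPM, log2 fold change -0.26, edgeR adjusted p = 0.0084). Ptcd3, a pentatricopeptide repeat protein of the small subunit, rose (146, 144 and 140.4 CPM to 155, 159 and 167 CPM, 0.16, adjusted p = 0.015), a call lost without siCtrl 2 or siRSL24D1 3. Of 29 factors that assemble or modify the mitoribosome, 7 rose and 8 fell (51.7% called, beside 41.2% of all genes tested). Their median was 0.01. The largest falls were those of Mettl15, a methyltransferase of the small-subunit ribosomal RNA (-0.75), Trmt2b, another RNA methyltransferase (-0.43), and Mrm1, a methyltransferase of the large-subunit RNA (-0.43). The largest rises were those of Noa1, a GTPase (0.42, with overlapping groups), Mrm3, also a methyltransferase of the large-subunit RNA (0.40), and Mettl17 (0.27). The Noa1 call was lost without siCtrl 1, siCtrl 2, siRSL24D1 1 or siRSL24D1 3, and with upper-quartile scaling, and that of Mettl17 without siCtrl 2.
Leaving out siCtrl 1, siCtrl 2, siCtrl 3, siRSL24D1 2 or siRSL24D1 3 left 4, 2, 3, 3 and 4 rises among the assembly factors. Leaving out siCtrl 1, siCtrl 2 or siRSL24D1 1 left 5 falls. The share of all genes called was 28.5% to 43.5% with 1 library left out.

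Of 15 mitochondrial translation factors 3 rose and 3 fell. Guf1, a back-translocating GTPase, fell (-0.30), as did Oxa1l, the insertase of the inner membrane (-0.23), and Mrrf, the ribosome recycling factor (-0.20), while Taco1, an activator of translation (0.24), Tufm, the elongation factor Tu (0.17), and Lrpprc, an mRNA-stabilising protein (0.16), rose. Only the calls of Guf1 and Lrpprc held without each single library: Oxa1l lost its call without siCtrl 1, siCtrl 2 or siRSL24D1 3, Mrrf without any library but siCtrl 3 and siRSL24D1 3, Taco1 without any but siCtrl 2 and in the DESeq2 Wald test, and Tufm without siCtrl 2. Of 17 mitochondrial aminoacyl-tRNA synthetases 4 rose and 5 fell (52.9% called, beside 41.2% of all genes tested). Among them were Iars2 (-0.49), Vars2 (-0.28), Mars2 (0.33), Cars2 (0.31) and Yars2 (0.22). Without siCtrl 1 or siCtrl 2 there were 3 falls, and without siRSL24D1 3, which ended the call of Yars2, 2 rises; the length correction ended that of Mars2.

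Of 11 genes that transcribe or maintain mitochondrial DNA 3 rose and 2 fell (45.5% called, beside 41.2% of all genes tested). Polg, the catalytic subunit of the DNA polymerase, fell (246, 255 and 249 CPM to 166, 165 and 165 CPM, -0.60), and its accessory subunit Polg2 fell by 0.22 on the log2 scale, a call lost without siCtrl 1, siRSL24D1 1 or siRSL24D1 3 and in the DESeq2 Wald test. Tfb2m (0.29), the RNA polymerase Polrmt (0.28) and Twnk (0.22) rose. Of the 13 mRNAs that the mitoribosome translates, 6 rose (46.2%, beside 21.2% of all genes tested). The other 7 were not called, and the median of the 13 was 0.14. The largest rises were those of mt-Nd3 (247, 245 and 244 CPM to 361, 388 and 408 CPM, 0.65, adjusted p = 6.2e-05), mt-Cytb (0.60) and mt-Nd1 (0.43). Without siCtrl 3, or without siRSL24D1 2, 1 of the 13 fell.

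The genes of the cytosolic ribosome moved differently in the same libraries. In that list 38 of 49 large-subunit and 25 of 33 small-subunit genes fell, beside 20.0% of all genes, with medians of -0.23 and -0.21. The counts were reduced by 4 single removals. Without siCtrl 1, siCtrl 2, siRSL24D1 1 or siRSL24D1 3 there were 22, 18, 24 and 20 large-subunit falls. Small-subunit falls were then 8, 6, 9 and 8. Among all genes tested 2368, 2147, 2499 and 2193 fell in those fits, beside 3021 with all libraries. As in the mitoribosomal genes, siCtrl 3 was the lowest of its group, here for 49 of 49 and 33 of 33 genes, and siRSL24D1 2 the highest of its group for 45 and 32. All tested genes with a transcript under 1500 bases had median deviations from the siCtrl mean of -0.08, 0.01 and -0.09 in siRSL24D1 1 to 3. Those of the cytosolic large-subunit genes were -0.26, -0.17 and -0.25, and of the small-subunit ones -0.24, -0.13 and -0.23. The cytosolic genes had a median transcript length of 869 bases, beside 1302 for the mitoribosomal genes. The difference between the cytosolic and the mitochondrial sets, and the part of transcript length in it, was not tested.

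**Figure D5:**
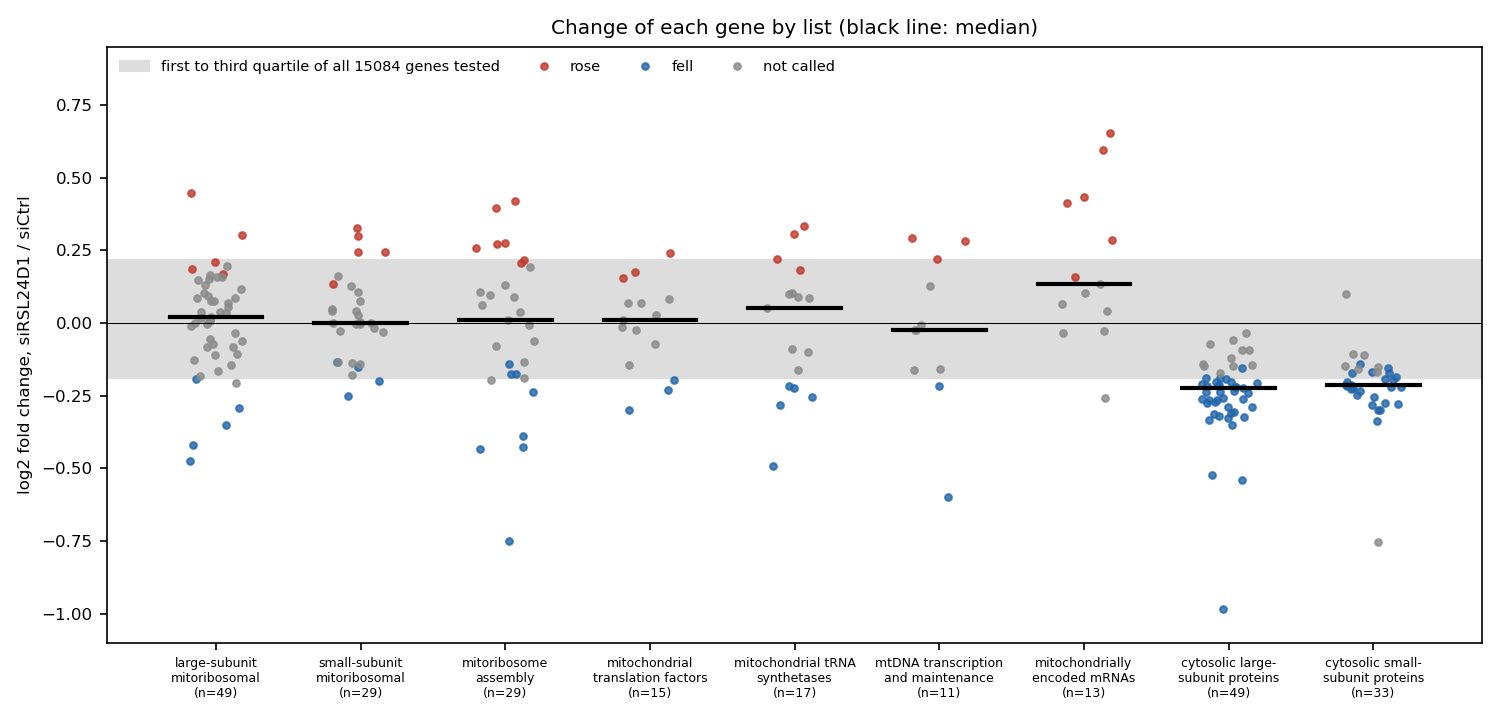
Log2 fold change of siRSL24D1 over siCtrl (y axis) for each gene of 9 lists (x axis, n of tested genes below each), red where the gene rose, blue where it fell and grey where it was not called; black lines are medians and the grey band spans the first to the third quartile of all 15084 genes tested. Both mitoribosomal medians lie near 0, at 0.02 and 0.00, and both cytosolic medians lie below the band, at -0.23 and -0.21.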

How the data were processed

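In the deposited table each gene has estimated counts per library, which the authors left unscaled. STAR 2.7.0f, Salmon 0.14.1 and the build GRCm38 are named in the submitters' processing notes. Per the labels' protocols, a stranded kit was used after depletion of ribosomal RNA. What each tool was used for, with which annotation and strand setting, is not given in the sources used here. Estimated counts can split reads between overlapping genes: 21.59% to 22.65% of a library's values were not whole at a tolerance of 1e-09, 44 of the 78 mitoribosomal genes had such a value in some library, and 33 overlap exons of another gene.

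Tests had been planned for counts. The estimated counts were therefore rounded, reduced by filterByExpr (a count of 10 as minimum and 15 in total) to 15084 genes, scaled by TMM and compared with edgeR 4.0.16 (quasi-likelihood F test, two-sided, R 4.3.3), with Benjamini-Hochberg adjustment over all genes tested. Common biological variation was 7.48%. Levels are TMM-scaled CPM from the rounded counts. Samples were grouped by the siRNA label. The members and lists were chosen with earlier results of these data known. Named by rule were up to 6 called rises and 6 called falls per subunit, the 3 highest and lowest genes per kilobase, the Mrps18 paralogs, Mrps30, Mrps36 and up to 3 called rises and falls per other mitochondrial list; 1 gene that this rule names is not reported here, and neighbouring genes were named after their values were seen. Mtrfr and Mtres1 were listed but not found in the table, and Wbscr16 is an older name of Rcc1l. Lengths and coordinates came from GENCODE M21 and promoters from RefSeq (GRCm38.p6). Motif shares and head-to-head pairs are counts without a test.

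The fit was tested on simulated data drawn from the means of these libraries (14971 genes). For siRSL24D1 against siCtrl, 30% of 1.25-fold, 86% of 1.5-fold, 90% of 2-fold and 100% of 4-fold changes were called, as were 0.0677% of unchanged genes. Only 50 genes changed at each fold there, while 6212 genes were called in the data. An adjusted p of 0.05 therefore asked for a smaller unadjusted p in the simulation, and its shares do not carry over to the mitoribosomal genes. Each result was computed again with scaling by DESeq2 size factors, upper quartiles or library totals, with no filter, a minimum of 1 CPM in 3 libraries, limma-voom (limma 3.58.1), the DESeq2 1.42.0 Wald test, values that were not rounded, a block for the replicate number, loess corrections for length and GC alone or with the block, a threshold of 0.01 and leaving out each library. Leaving out siCtrl 3 and siRSL24D1 2 together was added after seeing the data.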

Additional observations from a re-analysis of the deposited data

How the results depend on the processing

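Counts of called genes depended on single libraries. Against 5 rises and 5 falls of 49 in the large subunit and 5 rises and 4 falls of 29 in the small one, leaving out 1 library gave 3 to 8 and 3 to 11 in the large and 2 to 5 and 0 to 6 in the small subunit. The 0 came from edgeR without siCtrl 2 or without siRSL24D1 3. The called share of all genes moved too: it was 28.5% and 30.0% in those fits, against 41.2% with all libraries. Without siCtrl 3 it was 43.5%. With all libraries 6 small-subunit genes were lower at an unadjusted p under 0.05 in edgeR. Higher at that level were Mrps22, Mrps2, Mrps12, Mrps7, Mrps26, Mrps18b and Mrps11. Over both subunits and directions 31 genes passed it, a count given without the matching share of all genes. Without siCtrl 3 and siRSL24D1 2 together, 18 large- and 9 small-subunit genes fell. The summed level then differed (siRSL24D1 minus siCtrl) by -128 CPM in the large subunit, -37.5 in the small and -166 in both, against -7.13, 12.2 and 5.07 with all libraries. Library totals gave 11 large-subunit rises. The length correction gave 12 large- and 9 small-subunit rises, with or without the replicate block. The DESeq2 Wald test gave 2 small-subunit falls. An adjusted p under 0.01 left 2 rises and 3 falls in the large and 2 rises and 0 falls in the small subunit. The causes were not tested. Over all named genes and alternatives, 1094 values kept direction and side of the threshold, 109 lost and 17 gained the call, and 19 changed sign, each of a gene that was not called.

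Same-numbered libraries deviated together for numbers 2 and 3 (correlation across genes 0.144 and 0.168) but not for 1 (-0.218). Each deviation is from the mean of its own group of 3 libraries, so the correlations depend on one another. They cannot decide whether the numbers pair the libraries. The correlation of siCtrl 1 was highest with siRSL24D1 2 (0.337) and that of siCtrl 3 with siRSL24D1 1 (0.262). With the replicate number as a block 8 large-subunit genes fell, as they did with the GC correction and the block.

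The changes of sign were small. With the length correction, without and with the block, the log2 fold change was 0.00551 and 0.0055 for Mrpl42, -0.0221 and -0.0224 for Mrps25, and -0.0109 and -0.00628 for Mrpl17, which was at -0.0108 without siCtrl 3 and siRSL24D1 2. Mrps21 was at -0.0064 with DESeq2 size factors, -0.0237 with upper-quartile scaling, -0.0014 with no filter, -0.0063 with the Wald test, -0.0311 without both libraries that stand apart, and between -0.0436 and 0.0587 with 1 library left out. Mrps18c without both of those libraries was at -0.00903. Mrps35 was at 0.0046 with library totals and between -0.0637 and 0.0094 with 1 library left out.

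Depth limits the mitoribosomal genes little, at siCtrl means of 16.7 to 164 CPM. The simulation, with 3 libraries a group, called 30% of 1.25-fold changes, a share that does not carry over to these genes. For 52 of the 59 genes not called, the 95% confidence interval stayed within a 1.25-fold change.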
